A study of Mus musculus with 68 samples.

Results

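The genes described here were taken as markers of macrophages and Langerhans cells, immune cells that live in skin, and there are 8 of them: Adgre1, Csf1r, Cd68, Mrc1, Cd163, Arg1, Cd207 and Itgax. In these papillomas Arg1 did not follow the other 7, its Pearson r with them running from -0.32 to 0.01 over 37 mice. They were chosen by name, and all probesets carrying these symbols in the array annotation were taken. The 8 genes are represented by 10 of the 34945 probesets that carry a single symbol, and they are 8 of 18193 genes on that footing. Csf1r has 3 probesets and each other gene has 1. All 10 probesets passed the filter on low values, which left 21561 probesets and 12596 genes for testing.

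The tissue was papilloma, the benign skin tumor that follows a single application of the carcinogen dimethyl benzanthracene (DMBA) and repeated promotion with tetradecanoyl-phorbol acetate (TPA). All 37 mice were of 1 backcross, FVBBX, in which hybrids of the strains SPRET/Ei and FVB/N were crossed again to FVB/N, so that every mouse carries its own mixture of SPRET/Ei and FVB/N alleles. Treatment of the dorsal skin began at 8 to 12 weeks of age in every mouse, and TPA was given for 20 weeks. A pair of papillomas was measured from each of 31 mice and 1 papilloma from each of the other 6, which gave 68 arrays. By papilloma number at 20 weeks, 12 mice were susceptible (9 to 35 papillomas), 19 intermediate (2 to 7) and 6 resistant (0 or 1). Coat was agouti in 17 mice and white in 20, an agouti coat marking a SPRET/Ei allele of the pigment gene Tyr on chromosome 7. There were 21 females and 16 males. Papillomas were taken when a mouse was killed for a carcinoma or when the experiment ended, so their age differed between mice. Resistant mice 32 and 35 had 0 papillomas at 20 and at 24 weeks, so the papillomas measured from them were seen only later. The recorded days alive had medians of 247 in 10 susceptible, 284.5 in 18 intermediate and 279 in 3 resistant mice. The part of this timing in the differences between classes was not tested. Untreated skin was not analysed here.

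Macrophages settle in the dermis and in the stroma of tumors, where they are maintained by signaling through the CSF1 receptor, take up dead cells and debris, and present several surface states that are told apart by scavenger receptors. Langerhans cells are the dendritic-type cells of the epidermis. They share an origin with macrophages, need IL-34 made by keratinocytes, and carry langerin and class II molecules with which they present antigen to T cells. In bulk papilloma RNA, fewer cells of a type and less RNA per cell cannot be told apart.

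Values are log2 RMA signals. Papillomas of the same mouse were averaged, and the mouse is the unit of n. The number of mice, above all the 6 resistant ones, limits the precision. The array medians lay between 5.19 and 5.29. Xist or the Y-linked gene Eif2s3y went against the recorded sex in 8 arrays from 6 mice (1 susceptible, 4 intermediate and 1 resistant). The papilloma pairs and the correlations between members were also computed without those mice. So were the comparisons of members between groups, except the comparisons of a class against intermediate mice. The results for marker lists were not computed without those mice. The log2 ratio of the 3′ to the 5′ control probesets of Actb, a sign of RNA integrity, ran from -0.27 to 2.13 over arrays. Its mean over mice was 0.85 ± 0.24 (SD, n = 12) in susceptible, 0.72 ± 0.20 (n = 19) in intermediate and 0.59 ± 0.25 (n = 6) in resistant mice. The mice entered treatment in 7 start cohorts of 2 to 9 mice.

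Upstream sequences of 4 members are shown because 3 of these genes moved together over the mice and Cd207 was less correlated with them (r between 0.17 and 0.24). Each is the 250 bases before the annotated start in the RefSeq table for GRCm38.p6, written 5′ to 3′ on the strand of the gene. Capitals mark matches to GAGGAA, the core of the site bound by the myeloid factor PU.1, or to TGANTCA, the AP-1 site, searched on both strands, so that TTCCTC is GAGGAA read from the other strand.
Cd68 (chr11:69666171-69666420, minus strand): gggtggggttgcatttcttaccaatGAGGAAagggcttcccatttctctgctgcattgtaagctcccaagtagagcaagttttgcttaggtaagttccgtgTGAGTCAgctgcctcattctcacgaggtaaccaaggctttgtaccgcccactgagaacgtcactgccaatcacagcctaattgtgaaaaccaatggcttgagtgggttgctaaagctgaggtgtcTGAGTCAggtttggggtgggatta
Mrc1 (chr2:14229164-14229413, plus strand): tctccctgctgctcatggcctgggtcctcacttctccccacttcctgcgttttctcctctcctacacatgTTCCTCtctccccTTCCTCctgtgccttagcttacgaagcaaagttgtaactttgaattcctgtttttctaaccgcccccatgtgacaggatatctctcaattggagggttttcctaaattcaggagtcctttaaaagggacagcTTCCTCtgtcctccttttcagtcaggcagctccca
Cd163 (chr6:124304401-124304650, plus strand): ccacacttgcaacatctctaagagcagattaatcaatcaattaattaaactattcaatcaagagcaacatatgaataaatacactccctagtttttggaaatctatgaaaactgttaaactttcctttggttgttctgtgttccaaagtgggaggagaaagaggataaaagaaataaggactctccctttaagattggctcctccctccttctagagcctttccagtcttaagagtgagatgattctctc
Cd207 (chr6:83677858-83678107, minus strand): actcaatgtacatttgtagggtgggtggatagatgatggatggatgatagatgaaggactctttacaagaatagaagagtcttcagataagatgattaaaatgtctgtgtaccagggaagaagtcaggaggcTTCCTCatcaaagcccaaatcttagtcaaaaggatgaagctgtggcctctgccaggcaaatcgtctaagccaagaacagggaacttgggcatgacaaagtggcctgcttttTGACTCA
The Mrc1 sequence held 3 matches to GAGGAA and none to TGANTCA, that of Cd68 held 1 and 2, that of Cd207 1 and 1, and that of Cd163 neither. Itgax, with 1 AP-1 match and no PU.1 match, was the remaining member with a sequence, and those of Adgre1, Csf1r and Arg1 were not used here. Among 32851 promoter sequences of the same length, 23.3% held GAGGAA and 6.75% held TGANTCA. These matches describe letters and not bound sites.

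All 8 genes varied widely between mice. Adgre1, an adhesion receptor of mature macrophages, had a lowest mouse mean of 5.35, a median of 6.80 and a highest of 9.29, a 15.3-fold range, with a mean of 6.99 ± 0.90 (SD, n = 37). Csf1r, the receptor for CSF1 and IL-34, ran from 9.88 through a median of 10.80 to 12.16, with a mean of 10.80 ± 0.62. Its 3 probesets were correlated over the mice with Pearson r between 0.96 and 0.98. Cd68, a lysosomal glycoprotein of phagocytes, ran from 7.28 through 8.83 to 10.22, with a mean of 8.89 ± 0.65. Csf1r and Cd68 lay above the array median in all 68 arrays and Adgre1 in 67, its lowest mouse mean being near the array medians. The SD of each was above that of at least 92.1% of the probesets tested.

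By SD, the scavenger receptors varied most. Mrc1, the mannose receptor, ran from 8.07 through 9.48 to 11.91, a 14.3-fold range, with a mean of 9.64 ± 1.13. Cd163, which takes up haemoglobin bound to haptoglobin, ran from 5.21 in intermediate mouse 24 through 8.36 to 11.38 in susceptible mouse 1, a 71.7-fold range, with a mean of 8.35 ± 1.45. The SD of Cd163 was above that of 99.5% of probesets tested and that of Mrc1 above 98.8%. Cd163 passed the array median in 65 of 68 arrays, so its low end lies at the level of weak probesets.

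The remaining genes had smaller ranges than Mrc1 and Cd163. Arg1, the arginase that turns arginine into ornithine and urea, was high on every array and ran from 11.67 in intermediate mouse 27 through 13.57 to 14.24 in resistant mouse 10, with a mean of 13.46 ± 0.56. Cd207, which encodes langerin, the lectin of Langerhans cell granules, ran from 4.82 in resistant mouse 32 through 6.81 to 8.13 in susceptible mouse 31, a 9.93-fold range, with a mean of 6.80 ± 0.68. Cd207 passed the array median in 67 of 68 arrays, and its lowest mouse mean lay below all array medians, at the level of weak probesets. Itgax, the integrin alpha chain of dendritic cells and of some macrophages, ran from 6.44 through 7.42 to 8.49, with a mean of 7.46 ± 0.56. The lowest mice of Csf1r, Cd207 and Itgax were all resistant mouse 32.

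**Figure D1:**
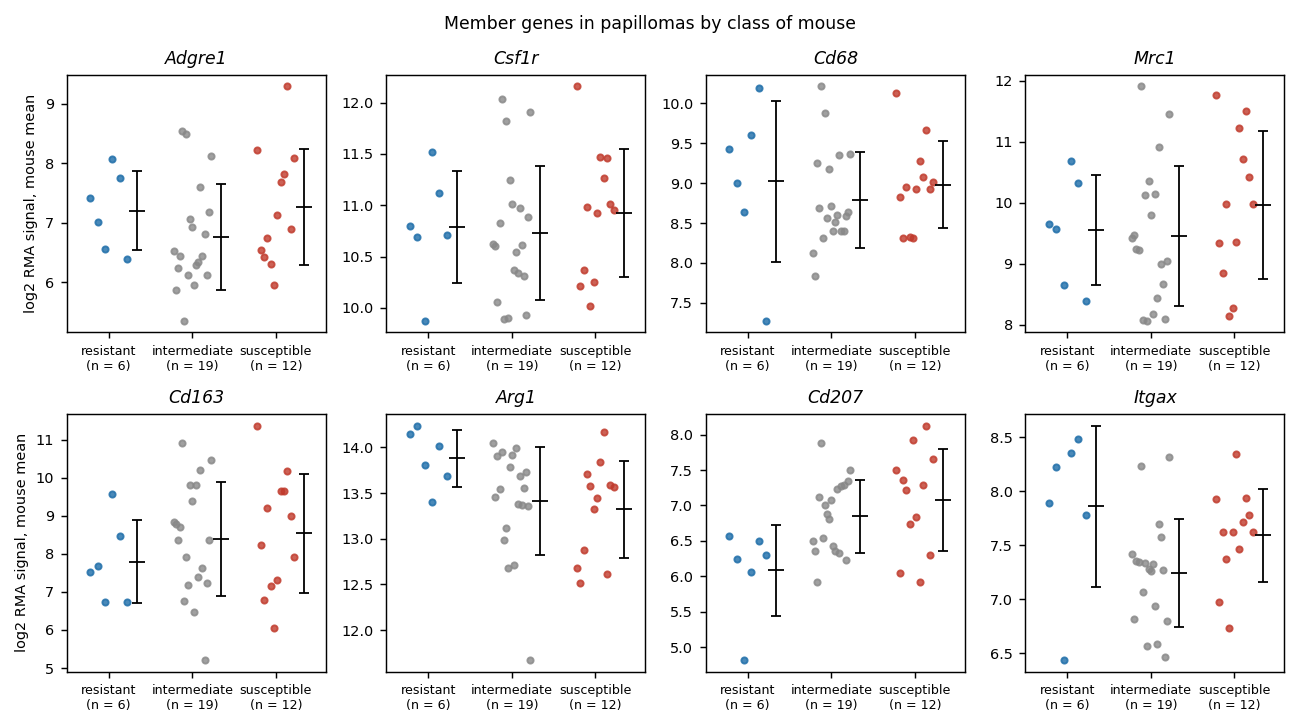
Log2 RMA signal (vertical axis) of each of the 8 genes, with 1 point per mouse, in 6 resistant, 19 intermediate and 12 susceptible mice; black bars give the class mean and SD. The classes overlap for all genes, and the resistant points of Cd207 lie below the intermediate median in 6 of 6 mice.

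A set of 6 of the genes moved together from mouse to mouse, Arg1 passed with none of them, and Cd207 passed with 2 of them. Of the 28 pairs of members, 17 had a Pearson correlation over 37 mouse means that passed a permutation test after Benjamini-Hochberg adjustment over the 28, and all 17 were positive. The 15 pairs among Adgre1, Csf1r, Cd68, Mrc1, Cd163 and Itgax all passed, with r from 0.36 to 0.89 and a median of 0.70. These 6 were grouped by the same correlations, with Arg1 and Cd207 set apart, so the passing of all 15 is not a separate result. The highest r of Cd207, 0.40, was above the lowest of the 15. Both genes of a pair are read from the same arrays. For comparison, over all 79323310 pairs of tested genes the median r was 0.0031. Of those pairs, 8.43% had an r above 0.4, 4.03% above 0.5 and 0.446% above 0.7.

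Csf1r and Mrc1 had r = 0.89 and Spearman rho = 0.89, each with a permutation p of 1e-05, the smallest that 100000 permutations can give (adjusted p = 3.5e-05 for r). Without the 2 mice farthest from the median the r was 0.86, and within the start cohorts of 6, 8 and 9 mice it was 0.91, 0.93 and 0.84. Mrc1 and Cd163 had r = 0.89 and rho = 0.89, with 0.86 without the 2 farthest mice and 0.90, 0.85 and 0.91 within those cohorts. Adgre1 and Csf1r had r = 0.85 and rho = 0.86, with r = 0.86 without the 2 farthest mice and 0.68, 0.78 and 0.77 within the cohorts. By rho, the values in these cohorts ran from 0.76 to 0.89 for Csf1r with Mrc1, from 0.57 to 0.73 for Adgre1 with Csf1r, and from 0.33 to 1.00 for Mrc1 with Cd163, whose lowest was in the cohort of 8 mice (exact permutation p = 0.428). The weakest of the 15 pairs was Cd163 with Itgax, at r = 0.36 (adjusted permutation p = 0.0451). It had r = 0.34 (adjusted p = 0.0763) without the 2 farthest mice, and its sign turned in the cohorts of 6 and 9 mice.

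Arg1 passed with none of the other 7 genes. Its r ran from -0.32 with Cd207 to 0.01 with Itgax, and its rho from -0.36 to 0.21. Within the cohort of 9 mice its r with Mrc1 was 0.76 (adjusted exact p = 0.0372), and in the cohort of 6 mice all 7 of its correlations were negative, between -0.78 and -0.48. Cd207 passed with Csf1r at r = 0.40 and with Adgre1 at r = 0.37, and without the 2 farthest mice these were 0.30 (adjusted permutation p = 0.134) and 0.19 (adjusted permutation p = 0.43). By rho neither passed. The r of Arg1 with Cd207 was -0.32 (adjusted permutation p = 0.0923), and with sex and start cohort removed it was -0.38 (adjusted permutation p = 0.035).

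**Figure D2:**
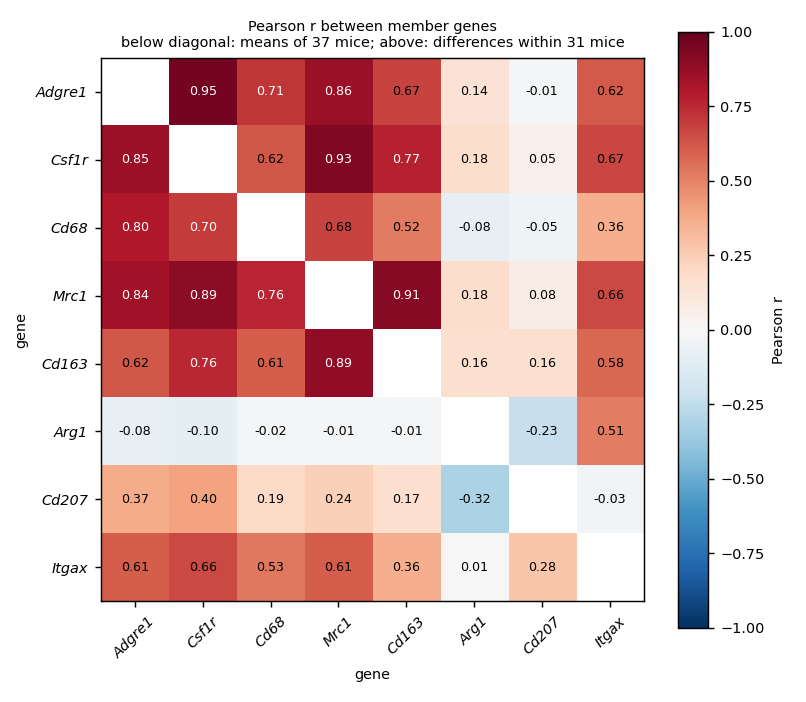
Pearson r for each pair of the 8 genes, in color and as a number, over the means of 37 mice (below the diagonal) and over differences between the papillomas of 31 mice (above). The block of 6 macrophage and dendritic genes reaches 0.89 below and 0.95 above the diagonal, while the Arg1 and Cd207 rows lie nearer 0.

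The same 31 mice with 2 papillomas show how far these genes belong to the mouse and how far to the single tumor. An intraclass correlation (ICC) of 0 means that papillomas of a mouse are no more alike than those of different mice, and an ICC of 1 that they are equal. The F test with 30 and 31 degrees of freedom passed at an adjusted p under 0.05 for all 10 member probesets, against 71% of all probesets tested. Cd163 had the highest ICC at 0.65 (limits at 95% confidence 0.39 to 0.81, adjusted p = 0.000195). Cd68 had 0.62 (0.35 to 0.79) and Arg1 0.61 (0.33 to 0.79). Itgax followed with 0.54, Mrc1 with 0.50 and Adgre1 with 0.49. The lowest were Cd207 at 0.42 (0.08 to 0.67, adjusted p = 0.0149) and Csf1r at 0.41 (0.08 to 0.67), and the limits of all 8 genes overlap. The median over the 8 genes was 0.52, beside 0.42 over all 12596 genes. Without the 4 pairs from mice that went against their sex label, 9 of the 10 probesets passed, against 58.2% of all probesets tested. The exception was 1 Csf1r probeset with an ICC of 0.33 (adjusted p = 0.0641 for the F test).

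On the log2 scale, papillomas of 1 mouse differed by a median of 0.65 for Cd163, while papillomas of different mice differed by a median of 1.61. For Mrc1 these medians were 0.61 and 1.27. For Cd207 they were 0.40 and 0.72, and for Arg1 0.33 and 0.51. In each of the 8 genes the difference within a mouse was the smaller one.

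Single pairs nevertheless differed strongly. In intermediate mouse 25, Cd163 was 4.87 in one papilloma and 9.59 in the other, and Mrc1 was 6.29 and 9.91. In resistant mouse 32, Mrc1 was 10.80 and 6.52, Cd163 8.99 and 4.51, and Csf1r 11.09 and 8.66. In intermediate mouse 14, Adgre1 was 7.20 and 9.77 and Csf1r 10.74 and 12.91. Several macrophage genes were thus high or low together in 1 tumor of these mice. Cd207 did not share this, since in mouse 14 it was 7.00 in both papillomas and in mouse 32 it was lower (3.98) in the papilloma in which Mrc1 was higher. In the resistant mice Cd207 differed by a median of 1.5 between papillomas (5 pairs), against 0.34 in 16 intermediate and 0.47 in 10 susceptible pairs. In mice 32, 34 and 37 its lower papilloma read 3.98, 5.32 and 5.36, near or below the array medians. The resistant median was also the largest of the classes for Mrc1 (1.13), Cd68 (0.84) and Cd163 (0.82), but not for Adgre1, Arg1 or Itgax. The probesets of Csf1r differed in this.

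**Figure D3:**
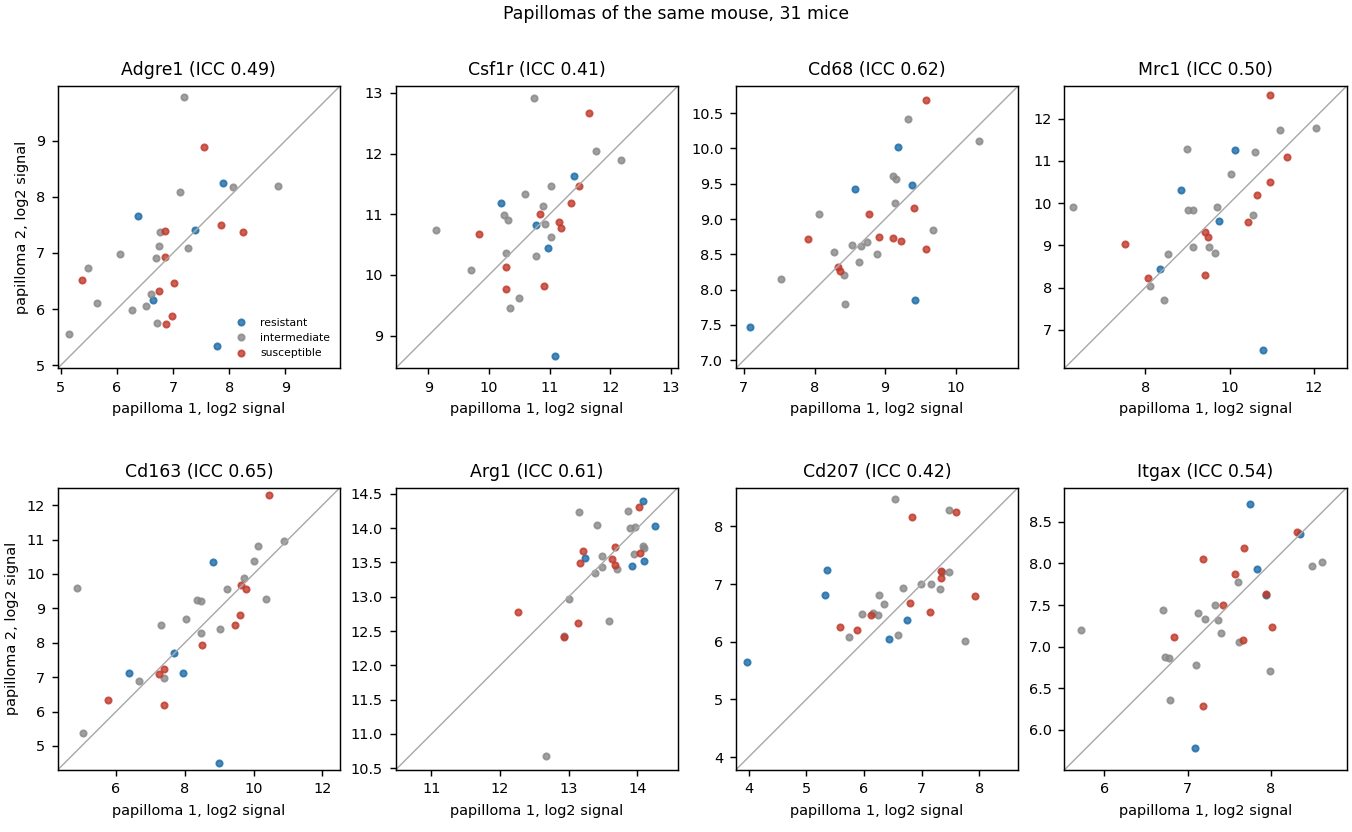
Log2 signal of the second papilloma (vertical axis) against the first (horizontal axis) of 31 mice for each gene, with 1 point per mouse colored by class and the line of equality. Points lie nearest the line for Itgax and Arg1 (median difference 0.33 in each) and farthest for Cd163 (0.65), the gene with the largest spread between mice, while the ICC runs from 0.41 for Csf1r to 0.65 for Cd163.

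Over all 31 pairs, the differences between papillomas of a mouse were correlated between genes much as the mouse means were. Of the 28 pairs of members, 15 passed the permutation test. For these differences the correlations over all pairs of tested genes were not computed, so no background stands beside that count. Adgre1 and Csf1r had r = 0.95 and rho = 0.94, and without the 2 mice farthest from the median r was 0.92. Csf1r and Mrc1 had r = 0.93 and rho = 0.90, and Mrc1 and Cd163 r = 0.91 and rho = 0.81, each with an adjusted permutation p of 7e-05. Among the 6 genes 14 of 15 pairs passed, Cd68 with Itgax being the exception at r = 0.36 (adjusted p = 0.0763), and 11 of 15 passed without the 2 farthest mice. Arg1 passed with Itgax alone, at r = 0.51 and rho = 0.56 (adjusted permutation p = 0.00745 for r). Cd207 passed with no other gene by Pearson r, between -0.23 and 0.16. Its difference was related to that of Cd163 by rank, with rho = 0.50 (adjusted permutation p = 0.0095) beside r = 0.16, and without the 2 farthest mice r was 0.63 (adjusted permutation p = 0.00112).

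The genes whose mouse means were most like each member, out of 12595 others, fall in with these groups. For Adgre1 they were Lcp2 (r = 0.93), Nckap1l, Lpxn, Myo1g and Clec4a3. For Csf1r they were P2ry6 (r = 0.92), Laptm5, Dab2, Fcgrt and Pla2g15, and for Cd68 Evi2a (r = 0.91), Lgmn, Bin1, Tmem106a and Acp2. Mrc1 was most like the Fc receptor gene Fcgr2b (r = 0.97), then Fcgrt, the complement gene C1qc, Dab2 and P2ry6. Cd163 was most like Mrc1 and the chemokine gene Ccl8 (r = 0.87), then Fcgr2b, Rnase2a and Folr2. Itgax was most like Slc15a3 (r = 0.84), Ptprc, the pan-leukocyte phosphatase CD45, Itgal, Syk and Themis2.

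Arg1 and Cd207 had other neighbors. The genes most like Arg1 were Ecm1, an extracellular matrix gene (r = 0.91, rho = 0.95), Apol7a (r = 0.85), Anxa1 (r = 0.83), Ceacam1 (r = 0.82) and Cgnl1 (r = 0.80). No gene of the macrophage lists was among them. Cd207 was most like the T cell costimulator Icos (r = 0.74), then Nlrc5, an activator of class I genes, the T cell adhesion gene Cd2, Naaa and Tnfrsf18 (r = 0.69). Its highest r was lower than the highest r of each of the other 7 genes. These are correlations over 37 mice of genes read on the same arrays.

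The 8 genes were also compared with 17 marker lists, each as the mean log2 value of its tested genes, and with the Actb ratio, which makes 144 relations, of which 76 passed the permutation test after adjustment over the 144. Adgre1 followed the list of 19 core macrophage genes with r = 0.92 and rho = 0.91 (adjusted p = 5.1e-05), and 0.86, 0.95 and 0.86 within the cohorts of 6, 8 and 9 mice. Spi1, which encodes PU.1, was at r = 0.90 with Adgre1. Mrc1 followed the list of 14 tissue-resident and alternative activation genes with r = 0.95 and rho = 0.94 (adjusted p = 5.1e-05), and 0.94 to 0.96 within the cohorts. In that list Folr2 was at r = 0.93 with Mrc1 and Clec10a at 0.87, while Pparg was at -0.16. The other core list genes spread from r = 0.54 (Mertk) to 0.94 (C1qc) with Mrc1.

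Among ligands and chemokines, Csf1r was at r = 0.67 with Csf1 and at -0.05 with Il34, its ligands. Among chemokine genes, the highest were Ccl12 at r = 0.92 with Mrc1, Ccl7 at 0.89 with Adgre1 and Ccl8 at 0.87 with Cd163. Others were lower, with Ccl2 between 0.38 and 0.64, Ccl3 between 0.31 and 0.58 and Ccl5 between 0.19 and 0.62 over the 6 genes, and the fractalkine gene Cx3cl1 was between -0.16 and 0.12. The fractalkine receptor Cx3cr1 was at -0.27 with Mrc1 and -0.04 with Adgre1. Of the 8 genes, 6 passed with each of the colony-stimulating factor, monocyte recruitment and classical activation lists, the exceptions being Arg1 and Cd207 in each case.

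The lists that mark other cells moved with the macrophage genes as well. Of the 8 genes, 7 passed with the T cell list and 7 with the mast cell list (all but Arg1), 5 with the fibroblast and 5 with the endothelial list, 2 with the skeletal muscle and 2 with the adipocyte list, and 3 with the neutrophil list. Adgre1 was at r = 0.78 with the T cell list, 0.76 with the mast cell list and 0.61 with the fibroblast list. It was at -0.41 with the basal keratinocyte list (adjusted permutation p = 0.0222), with rho = -0.17. None of the 8 passed with the proliferation list or with the Actb ratio. The part of stroma and other leukocytes in the joint movement of the macrophage genes was not tested.

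Cd207 followed the Langerhans and dendritic cell list of 17 genes with r = 0.62 and rho = 0.55 (adjusted permutation p = 8.5e-05 for r and 0.00165 for rho). Without the 2 farthest mice r was 0.49, and within the cohorts of 6, 8 and 9 mice it was 0.76, 0.87 and 0.50. The class II genes H2-Ab1 (r = 0.65) and H2-Aa (0.64) and the invariant chain gene Cd74 (0.61) lay highest in the list, but the same 3 genes were at 0.65 to 0.74 with Adgre1 and at 0.73 to 0.80 with Csf1r. A further class II gene, H2-Eb1, was at 0.18 with Cd207, the chemokine genes Ccl20 and Ccl22 were both at 0.51, and Epcam, which Langerhans cells share with keratinocytes, was at 0.01. Cd207 also passed with the T cell list (r = 0.60, rho = 0.54), the mast cell list (r = 0.51, rho = 0.41) and the differentiated keratinocyte list (r = 0.54, adjusted permutation p = 0.00302, with rho = 0.35, adjusted p = 0.0616). Its r with the core macrophage list was 0.22 (adjusted permutation p = 0.277).

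By Pearson r, Arg1 passed with the neutrophil list alone, at r = 0.51 and rho = 0.62 (adjusted permutation p = 0.00304 for r), with 0.58, 0.66 and 0.85 within the cohorts. By rank it also passed with the differentiated keratinocyte list, at rho = -0.49 (adjusted permutation p = 0.00519) beside r = -0.29. In the neutrophil list Ltf, the lactoferrin gene, was at r = 0.72 with Arg1, while Mpo was at -0.13 and S100a8 at -0.06. Cxcr2, at 0.29, was the next highest after Ltf. Ltf also had the largest SD over mice in this list, 2.28 beside 0.22 to 1.41 in the others. The list mean was not computed without Ltf. With the list of 7 other arginine metabolism genes the r was 0.06 (adjusted permutation p = 0.783). In the arginine list Srm, the spermidine synthase gene, was at -0.43, Arg2 at 0.36 and the arginine transporter gene Slc7a2 at 0.11, whereas Slc7a2 was at 0.82 with Mrc1.

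**Figure D4:**
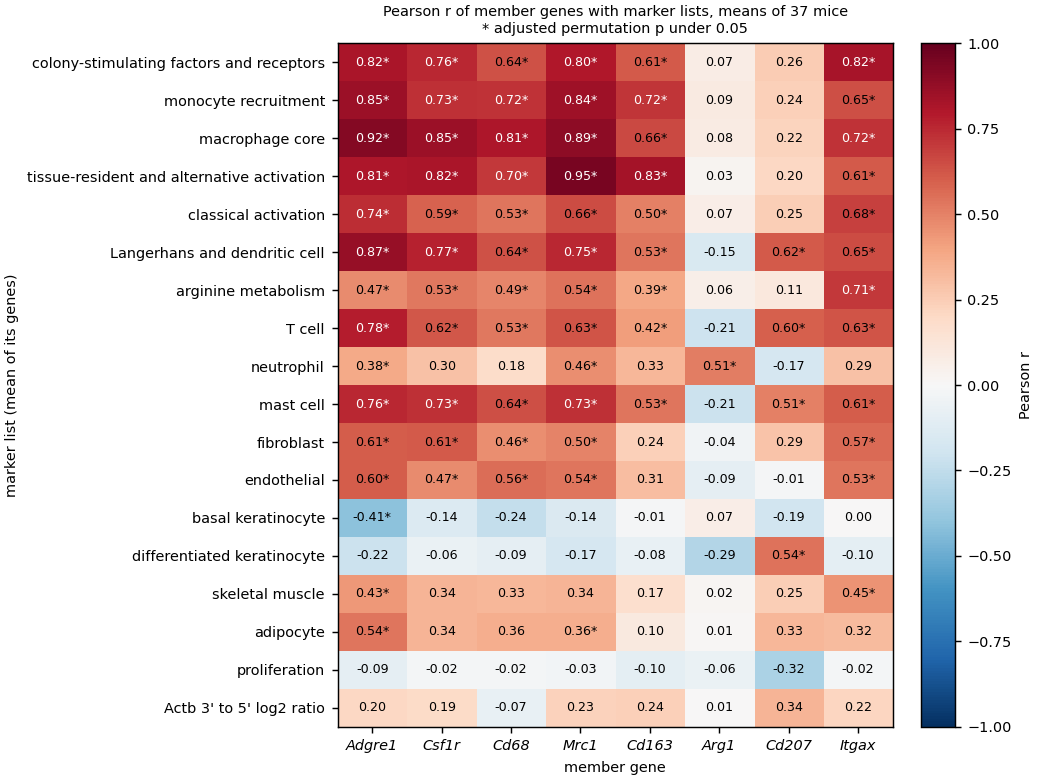
Pearson r over 37 mice between each of the 8 genes (columns) and the mean level of each marker list or the Actb ratio (rows); marked cells passed the permutation test after adjustment over 144 relations. The columns of Adgre1, Csf1r, Cd68, Mrc1, Cd163 and Itgax are marked in the top 7 rows, the T cell row and the mast cell row, Cd207 is highest with the Langerhans and dendritic cell list (0.62) and Arg1 with the neutrophil list (0.51).

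The question whether the macrophage and Langerhans cell genes go with susceptibility was addressed first with the 12 susceptible against the 6 resistant mice. None of the 10 member probesets passed an adjusted p of 0.05 in limma, where 0.051% of all probesets did, and 2 of the 10 had an unadjusted p under 0.05, where 9.53% of all probesets did. Those 2 were Cd207 and Arg1, in opposite directions. A count so small beside that share is not a result about the 8 genes as a set.

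Cd207 had mouse means of 6.56, 6.24, 4.82, 6.07, 6.50 and 6.30 in resistant mice 7, 10, 32, 34, 35 and 37. In the susceptible mice the lowest was 5.92, the median 7.26 and the highest 8.13. The classes overlap, with 9 of 12 susceptible mice above all 6 resistant ones and 6 of 6 resistant mice below the intermediate median of 6.88. The class means were 7.08 ± 0.72 (SD, n = 12) in susceptible, 6.84 ± 0.52 (n = 19) in intermediate and 6.08 ± 0.64 (n = 6) in resistant mice. The susceptible minus resistant difference was 0.99 (SE 0.32, limma p = 0.00639, adjusted p = 0.265), and exact permutation of the class over the 18 mice gave a two-sided p of 0.0114. With the Actb ratio as a covariate the difference was 0.63 (limma p = 0.0725), and with start cohort 0.85 (limma p = 0.0887). Without mouse 32 it was 0.74. Over all alternatives the adjusted p ran from 0.14 to 0.86. Within the 3 cohorts that hold both classes it was 1.16 (2 against 2 mice), 0.86 (3 against 1) and 0.23 (1 against 1). In 4 cages a susceptible and a resistant mouse of the same sex and cohort were housed together, and there it was -0.52 (mice 6 and 7), 2.84 (mice 36 and 32), 0.98 (mice 11 and 10) and 0.23 (mice 33 and 34), a mean of 0.88 ± 1.44 (SD, 4 cages), with a limma p of 0.158 with cage as a block. The resistant mouse was thus the lower one in 3 of 4 cages, and the largest difference is that of mouse 32.

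Arg1 had mouse means of 14.14, 14.24, 13.81, 13.40, 14.01 and 13.68 in the same 6 resistant mice, and ran from 12.52 through a median of 13.50 to 14.16 in the susceptible mice. Again the classes overlap, with 5 of 12 susceptible mice below all 6 resistant ones. The means were 13.32 ± 0.53 in susceptible, 13.41 ± 0.59 in intermediate and 13.88 ± 0.31 in resistant mice. Susceptible minus resistant was -0.56 (SE 0.22, limma p = 0.0215, adjusted p = 0.401), with an exact permutation p of 0.0316 (two-sided). With the Actb ratio as a covariate it was -0.52 (limma p = 0.0608) and with start cohort -0.66 (limma p = 0.0817), and over all alternatives the adjusted p ran from 0.245 to 0.833. In the 4 cages it was -1.62, -0.24, -0.53 and 0.18, with a mean of -0.55 (limma p = 0.121).

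The other 6 genes did not pass either. Cd163 was 8.55 ± 1.57 in susceptible and 7.80 ± 1.09 in resistant mice, a difference of 0.75 (SE 0.66), and Mrc1 was 9.97 ± 1.21 and 9.55 ± 0.90, a difference of 0.42 (SE 0.52). For Csf1r, Adgre1 and Cd68 the differences were 0.14 (SE 0.28), 0.05 (SE 0.41) and -0.05 (SE 0.34), and for Itgax -0.27 (SE 0.26). None of these 6 had an unadjusted p under 0.05. The Itgax difference depended on mouse 32, being -0.55 (SE 0.20, limma p = 0.0139, adjusted p = 0.474) without it, and it was -0.56 (limma p = 0.0441) with the Actb ratio as a covariate. The signs of Adgre1, Csf1r, Cd68 and Mrc1 turned under other settings.

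The intermediate mice were compared in a fit of all 37 mice, for which no alternative was run. Against them, the resistant mice had no member probeset past an adjusted p of 0.05, where 0.779% of all probesets passed, and 2 with an unadjusted p under 0.05, where 18.2% of all did. Cd207 was at -0.76 (SE 0.27, limma p = 0.00861, adjusted p = 0.139) and Itgax at 0.62 (SE 0.24, limma p = 0.0136, adjusted p = 0.163). Itgax was 7.86 ± 0.75 in resistant, 7.25 ± 0.50 in intermediate and 7.59 ± 0.43 in susceptible mice, so its order differed from that of Cd207. Between susceptible and intermediate mice 0 of the 10 probesets passed, where 0.00928% of all did, and 0 had an unadjusted p under 0.05, where 16.1% did.

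The core macrophage list was lowest in the intermediate mice. All 19 of its genes were higher in susceptible than in intermediate mice, with a median difference of 0.50, and all 19 were higher in resistant than in intermediate mice, with a median of 0.44. Over all 12596 genes tested, 6656 were higher in susceptible and 6305 in resistant than in intermediate mice. None of the 19 passed after adjustment in either comparison, and both comparisons share the intermediate mice. An unadjusted p under 0.05 was found for 5 and 3 of the 19, beside 1671 and 2315 of the 12596. Aif1, a calcium-binding protein of macrophages, was at 0.87 (SE 0.31, limma p = 0.00783, adjusted p = 0.196) in susceptible minus intermediate mice. The list mean was 8.78 ± 0.69 (SD, n = 12) in susceptible, 8.33 ± 0.70 (n = 19) in intermediate and 8.78 ± 0.69 (n = 6) in resistant mice, so the ranges overlap widely. Lists of other tissues were also lowest in the intermediate mice. The adipocyte list stood at 6.51 ± 1.71, 5.00 ± 1.03 and 5.44 ± 1.25 in the same classes. All 6 fibroblast genes were higher than in intermediate mice in both comparisons (medians 0.30 in susceptible and 0.32 in resistant mice), as were all 5 endothelial genes (0.29 and 0.65) and all 4 skeletal muscle genes (0.82 and 0.65). The part of these tissues in the macrophage gene differences was not tested.

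The number of papillomas was then used as a measure over all 37 mice. Cd207 had a slope of 0.27 on the log2 scale per doubling of the papilloma number plus 1 (SE 0.076, limma p = 0.00127), which did not pass after adjustment (adjusted p = 0.199). With cage as a block it was 0.33 (SE 0.11, limma p = 0.00903, adjusted p = 0.32). Among the slopes without that block, it was 1 of the 10 member probesets with an unadjusted p under 0.05, where 10.9% of all probesets had one, and 0 of the 10 passed after adjustment, where 0.00464% of all did. The slope of Arg1 was -0.10 (SE 0.070, limma p = 0.144), that of Cd163 0.22 (SE 0.18) and that of Mrc1 0.17 (SE 0.14), and that of Itgax was -0.01 (SE 0.073). Leaving out 1 mouse at a time gave Cd207 slopes from 0.20 to 0.29, the lowest without mouse 32. With papillomas counted at 24 weeks the slope was 0.20 (limma p = 0.0237).

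**Figure D5:**
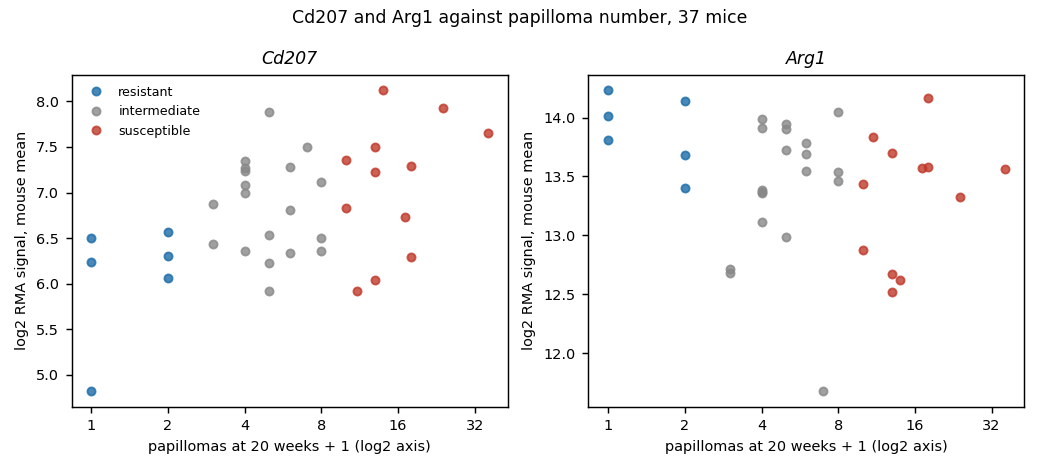
Log2 signal (vertical axis) of Cd207 and Arg1 against papillomas at 20 weeks plus 1 (horizontal log2 axis), with 1 point per mouse colored by class. Cd207 goes from 4.82 in a mouse with 0 papillomas to 8.13 in a mouse with 13, with wide scatter at every number.

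The rest of the Langerhans and dendritic cell list was higher in susceptible than in resistant mice in 14 of 17 genes, with a median difference of 0.18, where 6828 of 12596 genes were higher with a median of 0.015. None of the 17 passed. Ccl20, which attracts immature dendritic cells, had the only unadjusted p under 0.05, where 1261 of the 12596 genes had one. Its difference was 0.57 (SE 0.19, limma p = 0.00795, adjusted p = 0.287). With papilloma number, 15 of 17 slopes were positive and 4 had an unadjusted p under 0.05 (Ccl22, Cd209a, H2-Aa and H2-Ab1, at 0.10 to 0.20), with 0 passing. Over all 12596 genes, 6705 slopes were positive and 1259 had an unadjusted p under 0.05. In the tissue-resident macrophage list 12 of 14 genes were higher in susceptible mice with a median of 0.21. The largest differences there were those of the lectin gene Clec10a at 0.96 (SE 0.50), Chil3 at 0.77 (SE 0.83) and Lyve1 at 0.64 (SE 0.52), and the only unadjusted p under 0.05 was that of the lectin gene Mgl2 at 0.58 (SE 0.24, adjusted p = 0.43). In the core macrophage list 10 of 19 genes were higher, with a median of 0.04. Cd14, a coreceptor for lipopolysaccharide, went the other way at -0.86 (SE 0.36, adjusted p = 0.428), as did the interleukin gene Il1b at -0.81 (SE 0.39, adjusted p = 0.523).

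Keratinocyte differentiation genes were compared between the same classes. The mean level of the 6 genes (Krt1, Krt10, Ivl, Lor, Krtdap and Sbsn) ran from 12.99 to 13.83 in susceptible, from 12.76 to 13.95 in intermediate and from 10.52 to 13.12 in resistant mice. All 6 genes were higher in susceptible than in resistant mice, each with an unadjusted p under 0.05, where 1261 of 12596 genes had one. None of the 6 passed after adjustment in that comparison. Against intermediate mice, Krt10 fell by 1.62 (adjusted p = 0.00278) and Krt1 fell by 1.98 (adjusted p = 0.0185) in resistant mice. Kdr, an endothelial receptor for VEGF, rose by 0.69 in the same comparison (adjusted p = 0.03). The part of these cells in the Cd207 values was not tested.

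Coat, which marks the SPRET/Ei allele at Tyr, was compared with sex as a covariate. None of the 10 probesets passed between agouti and white mice, where 0.0742% of all did, and 0 had an unadjusted p under 0.05, where 7.88% did. Arg1 was at 0.30 (SE 0.17, limma p = 0.094) and Cd207 at -0.31 (SE 0.22, limma p = 0.164) in agouti minus white mice, and 5 of the 6 resistant mice were agouti. Itgax, which lies on chromosome 7 as Tyr does, was at -0.13 (SE 0.18).

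Between the sexes all 8 genes were higher in females, but none of the 10 probesets passed, where 0.0696% of all did. Adgre1 had the only unadjusted p under 0.05, where 14.9% of all probesets had one. It was 7.24 ± 0.93 in 21 females and 6.66 ± 0.76 in 16 males, a difference of 0.58 (SE 0.28, limma p = 0.0425, adjusted p = 0.32), and it was 0.46 (limma p = 0.149) without the mice that went against their sex label. Mrc1 was at 0.53 (SE 0.35), Cd163 at 0.50 (SE 0.46), Cd68 at 0.38 (SE 0.20) and Cd207 at 0.10 (SE 0.22).

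The other macrophage genes had the same sign. All 19 core macrophage genes were higher in females with a median of 0.50, and all 14 tissue-resident genes with a median of 0.49, where 6083 of 12596 genes were higher with a median of -0.0049. An unadjusted p under 0.05 was found for 2082 of the 12596 genes. None of the genes in either list passed after adjustment, and 6 core and 7 tissue-resident genes had an unadjusted p under 0.05. They included the scavenger receptor gene Msr1 at 0.97 (SE 0.27, limma p = 0.00106, adjusted p = 0.182), the hyaluronan receptor gene Lyve1 at 0.93 (SE 0.35, adjusted p = 0.249) and the chemokine gene Ccl24 at 0.91 (SE 0.28, adjusted p = 0.215). Genes of one list move together and are not independent of each other. The list comparisons between the sexes were not repeated without the mice that went against their sex label. The adipocyte and skeletal muscle lists were higher in females too, with list means from 3.92 to 9.75 in females and from 3.73 to 6.54 in males for adipocyte genes, and from 4.67 to 10.39 and from 4.58 to 8.63 for muscle genes. The adipokine gene Adipoq was at 1.97 (SE 0.62, adjusted p = 0.215) and the muscle actin gene Acta1 at 1.54 (SE 0.61, adjusted p = 0.272). The part of tissue taken with the papilloma in the sex differences was not tested.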

How the data were processed

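Gene expression was measured in 68 papillomas with Affymetrix Mouse Genome arrays, and the authors deposited log2 values after background correction and normalization by RMA, whose version is not given in the sources used here. Of 45101 probesets, those with 1 gene symbol that exceeded the array median in at least 11 of 68 arrays were tested. Papillomas of a mouse were averaged, so p-values are over mice. Groups were compared with limma 3.58.1 (R 4.3.3) and Benjamini-Hochberg adjustment over all tested probesets at 0.05. Correlations used 100000 permutations, exact enumeration within cohorts and 1 probeset per gene, that of highest mean (Python 3.11.15, scipy 1.17.1). The fits were tested on simulated data. All 8 members were named with all their probesets, as were the 5 genes most like each member and, from 18 marker lists of 154 genes, up to 3 genes of largest difference and those past the threshold. Other genes named were chosen after their values were seen. Members and lists were chosen with earlier results of these data known. Probes that differ in sequence between SPRET/Ei and FVB/N can read low in carriers, which was not tested here. Alternatives were the filter, centring, first papillomas, mouse as a random block, cohort, sex, class and Actb ratio as covariates, leaving out mice and, added after seeing the data, cage as a block.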

Additional observations from a re-analysis of the deposited data

Results flagged for a closer look

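In resistant mouse 32, Cd207 had a mean of 4.82, while the other 5 resistant mice lay between 6.07 and 6.56. The gap to the nearest mouse was 0.716 of the range of the 6 mice, above the critical value of Dixon's test for a group of 6. Itgax was lowest in the same mouse, at 6.44 against 7.78 to 8.49 in the others, with a gap of 0.656 of the range. Chance gives such a gap in about 1 of 20 groups, and it was looked for in all 10 member probesets. The Cd207 and Itgax values are read from the same arrays. The Actb ratio of this mouse, 0.18, was the lowest of the 37 mice, and its part in these values was not tested.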

How the results depend on the processing

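By replicate number, no paired analysis was possible because that number marks the papillomas of 1 mouse in the labels, and each mouse belongs to 1 class. Cage was used as a block instead, a choice made after seeing the data. No member passed an adjusted p of 0.05 in any comparison between groups under any alternative that was run. In susceptible minus resistant mice, the sign of Adgre1 turned with start cohort (-0.29) or the Actb ratio (-0.42) as a covariate and with cage as a block (-0.20), and leaving out 1 mouse gave -0.13 to 0.23. Csf1r turned with the same covariates (-0.080 and -0.11), and leaving out 1 mouse gave -0.043 to 0.29. Cd68 turned with first papillomas (0.0147) and without the mice against their sex label (0.25), and leaving out 1 mouse gave -0.40 to 0.19. Mrc1 turned with start cohort (-0.027). The cause was not tested.

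Within the start cohorts of 6, 8 and 9 mice, 1, 1 and 10 of the 28 pairs passed by r and 0, 2 and 0 by rho, where 17 passed by r over all mice. Each cohort holds fewer mice, and the part of that or of differences between cohorts in these counts was not tested. In the cohort of 9 mice, Cd207 had r = -0.35 and rho = -0.35 with Adgre1 and r = -0.40 and rho = -0.58 with Csf1r. Arg1 and Cd207 had r = 0.12 and rho = 0.19 in the cohort of 8. Cd163 and Itgax had r = -0.28 in the cohort of 6 and -0.026 in that of 9.

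The number of probesets called among all tested also moved. It was 11 between susceptible and resistant mice, with 0 for first papillomas or with cage as a block (8 mice), 28 without the mice against their sex label, and 4 to 89 with 1 mouse left out, the highest without mouse 29. For papilloma number it was 1, with 10 with cage as a block, 110 without the mice against their sex label and 0 to 58 with 1 mouse left out. For coat it was 16 with a range of 4 to 24, and for sex 15 with a range of 14 to 70.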
